A study of Mus musculus with 9 samples.

Results

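The genes described here encode subunits of the mitochondrial respiratory chain (complexes I to IV) and of the ATP synthase (complex V). They were chosen by gene symbol alone, from the nuclear subunit families, without assembly factors and pseudogenes. The array annotation held 85 such genes among 19505 genes with a symbol. Complex I had 35 of them, complex II 4, complex III 9, complex IV 20 and complex V 17. Ndufa4 and its relative Ndufa4l2, named as subunits of complex I, were counted in complex IV, where the Ndufa4 protein is now placed. Each gene had a single probe set.

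RNA came from hearts of female SCID mice, aged 80 to 100 days, whose strain lacks working T and B lymphocytes. All of the mice had a myocardial infarct from ligation of the left anterior descending (LAD) artery, and the peri-infarct region, the tissue that borders the scar, was taken 4 weeks later without the infarct core and the remote wall. The saline mice (n = 3) received the vehicle, the iCM mice (n = 3) cardiomyocytes differentiated from induced pluripotent stem cells, and the iCM-Ex mice (n = 3) exosomes, small vesicles precipitated from such cardiomyocytes. The groups thus share the infarct and the immune deficiency, and no uninjured heart was compared. The species of the stem cells is unstated in the labels, and whether RNA of grafted cells contributed to the signals was not tested. The labels call the samples biological replicates, 1 array each, and 9 arrays in all set the precision of every value below.

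The respiratory chain passes electrons from NADH, at complex I, and from succinate, at complex II, through coenzyme Q, complex III and cytochrome c to oxygen at complex IV. Complexes I, III and IV pump protons across the inner mitochondrial membrane, and the ATP synthase uses their return to make ATP. Heart muscle is dense in mitochondria and obtains most of its ATP in this way, mainly from fatty acids. Most of the nuclear genes below encode accessory subunits, which surround a small catalytic core that partly comes from mitochondrial DNA.

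Levels are log2 signals as deposited, so that a difference of 1 is a 2-fold change, and they are compared between arrays for a gene, not between genes. Positive and negative control probe sets lay 3.15 to 4.01 apart in their medians on 8 arrays and 2.47 apart on iCM replicate 2. Cardiomyocyte markers (13 of 13 measured) had a mean log2 signal of 15.62 to 17.52 on the 9 arrays, so the defining markers of the labelled tissue were present. Markers of other tissues stood out on 3 arrays. The mean of the 10 lung genes was 11.45 on iCM array 1 and 8.61 on iCM-Ex array 3, and between 4.24 and 5.85 elsewhere. The 11 fast skeletal muscle genes averaged 12.48 in iCM replicate 2 against 5.23 to 6.33 elsewhere. White fat markers averaged 8.78 in iCM replicate 2 against 4.26 to 5.84 elsewhere. The part of these tissues in the results was not tested, but each call is given below with and without these 3 arrays. In such bulk tissue, fewer cells of a type and less RNA per cell cannot be told apart.

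A larger share of the 85 subunit genes than of all genes differed by more than 1 log2 unit in each contrast. The levels of the compared genes were not matched. The median gene signal of an array was 5.44 to 5.70, near the median negative control (4.76 to 5.56), against subunit means of 12.80 to 14.48. The shares of all genes thus include many genes near the floor. Compared with saline, 49 of 85 had a higher mean in iCM (55.5% of all genes did), and 66 of 85 a higher mean in iCM-Ex (53.5% of all genes). Compared with iCM, 63 of 85 had a higher mean in iCM-Ex (46.1% of all genes). Differences larger than 1 were seen for 37 of 85 genes in iCM against saline (17% of all genes), for 34 in iCM-Ex against saline (12.8%) and for 34 in iCM-Ex against iCM (13.5%). In iCM-Ex against saline each of these was a higher mean, since the lowest difference of a member was -0.96. The median difference over the 85 genes was 0.21 for iCM minus saline (all genes 0.080), 0.85 for iCM-Ex minus saline (0.044) and 0.64 for iCM-Ex minus iCM (-0.044).

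**Figure D1:**
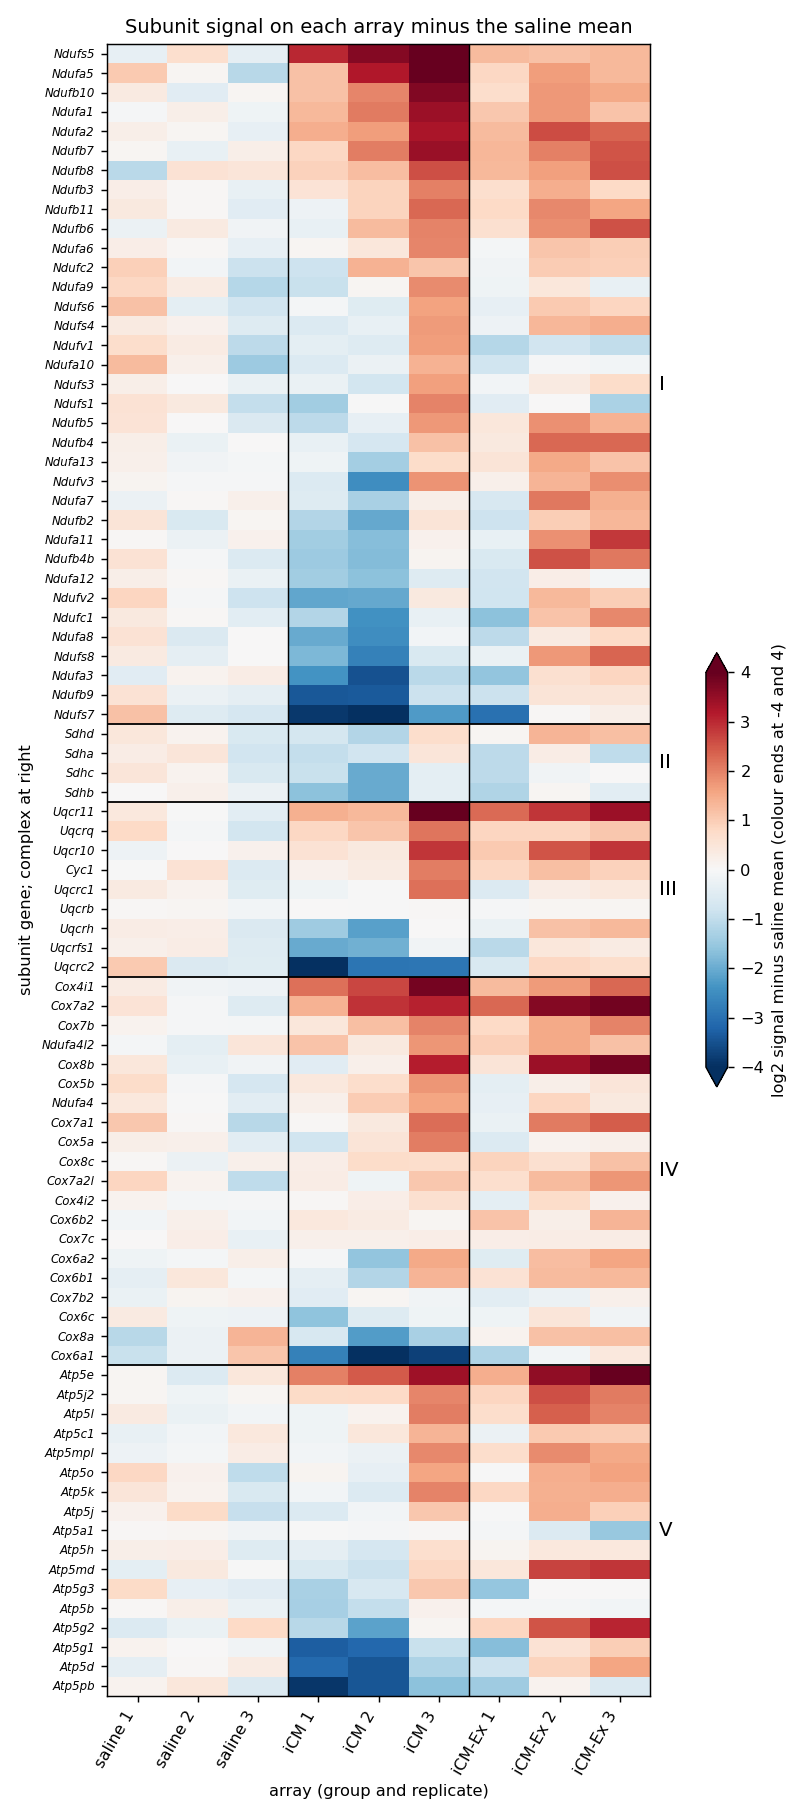
Log2 signal of each of the 85 subunit genes (rows, grouped by complex, labelled at the right) on each of the 9 arrays (columns) minus the gene's saline mean, with red for higher and blue for lower signal. Within the treated groups iCM replicate 3 was the highest iCM array for 79 genes and iCM-Ex replicate 1 the lowest iCM-Ex array for 77 genes.

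One array in each treated group stood apart for most members. iCM replicate 3 had a higher signal than both other iCM arrays for 79 of 85 genes (33% of all genes), namely 34 of complex I, 4 of complex II, 9 of complex III, 15 of complex IV and 17 of complex V. iCM-Ex replicate 1 had a lower signal than both other iCM-Ex arrays for 77 of 85 genes (36.5% of all genes). The mean log2 signal over the 85 genes was 13.55, 13.32 and 13.04 in the saline arrays, 12.80, 12.87 and 14.41 in the iCM arrays and 13.31, 14.47 and 14.48 in the iCM-Ex arrays. Without iCM replicate 3, 32 of 85 genes rather than 49 were higher in iCM than in saline. Without the 3 arrays with markers of other tissues, which leaves replicate 3 as the only iCM array, 67 were higher. The direction of the set between iCM-Ex and iCM turned with those 3 arrays as well, from 63 to 25 genes higher in iCM-Ex, and it was 39 with control separation in the model. Between iCM-Ex and saline the count was between 58 and 75 in all 18 alternative analyses.

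The cardiomyocyte marker list moved, in its mean, with these arrays in iCM but not in iCM-Ex. Its mean was 15.98, 15.62 and 17.52 in the iCM arrays and 16.14, 16.25 and 15.90 in the iCM-Ex arrays, against 16.84, 16.71 and 15.88 in saline. Single markers went both ways within iCM-Ex. Myl3 (14.75, 16.56 and 16.82) and Tnni3 were lowest on iCM-Ex replicate 1, as most subunit genes were. Myh6 (16.73, 15.65 and 14.24) and Ryr2 were highest there. Fibroblast markers (7 of 8 measured) averaged 16.01, 14.54 and 13.72 in the iCM arrays, so that iCM replicate 3 had the lowest fibroblast and the highest cardiomyocyte mean of its group. The part of tissue composition in the subunit values was not tested.

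In iCM hearts, 7 of the 85 genes passed the threshold against saline by limma, an adjusted p under 0.05 over all 19505 genes (3.67% of all genes did, and 8.24% of the members). The 4 that rose were Ndufs5, Cox4i1, Cox7a2 and Ndufa1 (1.34% of all genes rose), and the 3 that fell were Cox6a1, Uqcrc2 and Atp5pb (2.33% fell). The split was 8 up and 3 down after quantile normalisation (4.45% of all genes passed). After centring each array on its median it was 4 up and 5 down (4.58%). In a fit of genes above the median level alone, 14 of 82 members passed (7.76% of those genes). In iCM-Ex hearts 1 gene, Cox7a2, passed against saline (0.349% of all genes), which was a rise (0.22% rose and 0.128% fell). Between iCM-Ex and iCM 3 genes passed (1.07% of all genes), of which Cox6a1 and Uqcrc2 were higher (0.795%) and Ndufs5 lower (0.272%) in iCM-Ex. An F test over the 3 groups called 6 members (3.32% of all genes): Atp5pb, Cox4i1, Cox6a1, Cox7a2, Ndufs5 and Uqcrc2. At an unadjusted p under 0.05, limma gave 31 members for iCM minus saline (16 higher and 15 lower, 20.5% of all genes), 26 for iCM-Ex minus saline (26 higher and 0 lower, 15.2%) and 25 for iCM-Ex minus iCM (23 higher and 2 lower, 14.5%). Both treatments were compared with the same 3 saline arrays, so the 2 contrasts are not independent.

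3 stretches of promoter sequence are shown, for Cox6a1 and Atp5pb because they are the called genes with a motif match, and for Ndufs5 because it had the largest rise. RefSeq promoter windows (build GRCm38.p6, 250 bases before to 50 after a gene's start) were at hand for 69 of the 85 genes. The printed stretch ends 10 bases after the start and is written 5′ to 3′ on the gene's strand, which is the minus strand for all of them. Each is a stretch of 260 bases, at chr5:115348949-115349208 for Cox6a1, chr3:105959254-105959513 for Atp5pb and chr4:123718177-123718436 for Ndufs5. Capitals mark exact matches, on either strand to the NRF1 motif (a palindrome, the first run of capitals in Cox6a1), the ETS motif CCGGAAG or the YY1 motif AAGATGGC. The ETS motif's end and the YY1 motif's beginning share the letters AAG.
Cox6a1: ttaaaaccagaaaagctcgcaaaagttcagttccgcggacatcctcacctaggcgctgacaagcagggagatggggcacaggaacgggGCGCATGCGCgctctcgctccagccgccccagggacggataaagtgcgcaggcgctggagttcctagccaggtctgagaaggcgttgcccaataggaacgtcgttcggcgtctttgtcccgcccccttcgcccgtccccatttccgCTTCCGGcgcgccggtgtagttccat
Atp5pb: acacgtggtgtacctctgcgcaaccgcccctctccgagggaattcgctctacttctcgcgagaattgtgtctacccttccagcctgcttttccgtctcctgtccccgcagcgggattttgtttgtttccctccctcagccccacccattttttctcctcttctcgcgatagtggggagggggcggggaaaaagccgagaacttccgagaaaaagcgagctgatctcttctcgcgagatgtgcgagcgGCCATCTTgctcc
Ndufs5: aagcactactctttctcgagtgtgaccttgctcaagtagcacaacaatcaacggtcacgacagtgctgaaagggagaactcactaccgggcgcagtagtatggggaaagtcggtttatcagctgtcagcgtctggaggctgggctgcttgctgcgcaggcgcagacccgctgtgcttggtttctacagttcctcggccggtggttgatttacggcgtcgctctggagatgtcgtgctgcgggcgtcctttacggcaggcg
NRF1, the ETS factor GABP and YY1 are known regulators of respiratory genes. The Cox6a1 window held an NRF1 match that begins 162 bases before the start and an ETS match, on the opposite strand, that begins 16 bases before it. The Atp5pb window held a YY1 match, on the opposite strand, that begins 3 bases before the start and runs across it. The windows of Ndufs5, Cox7a2 and Ndufa1 held none of the 3 motifs, and no window was used for Cox4i1 and Uqcrc2. Of the 69 genes, 5 (7.25%) had an NRF1 match against 0.971% of all 32851 windows, 17 (24.6%) an ETS match against 8.86% and 10 (14.5%) a YY1 match against 2.75%. The 69 genes had 74 windows, and a gene was counted if any of its windows matched. The share of all windows is per window, so the 2 shares differ in unit. A match is a description of letters and not a shown binding site.

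Complex I, the NADH dehydrogenase, contributed the largest rise. Ndufs5, an accessory subunit on the intermembrane-space side, had log2 signals of 11.21, 12.23 and 11.19 in saline, 14.56, 15.20 and 15.85 in iCM and 12.80, 12.70 and 12.83 in iCM-Ex. The 3 groups did not overlap, and iCM-Ex lay between the others. In iCM Ndufs5 rose by 3.66 ± 0.39 (SE, limma, adjusted p = 0.00397), or 12.6-fold on the signal scale, and it was 2.42 ± 0.39 higher in iCM than in iCM-Ex (limma difference of iCM-Ex minus iCM -2.42, adjusted p = 0.0308). The difference of 1.24 between iCM-Ex and saline did not pass (limma adjusted p = 0.177).

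The Ndufs5 rise in iCM passed with any 1 array left out (limma adjusted p up to 0.0175, without saline replicate 2). Without the 3 arrays with markers of other tissues the difference was 4.30 with an adjusted p of 0.0719. The difference between iCM-Ex and iCM did not pass without iCM replicate 2 (limma adjusted p = 0.0966), iCM replicate 3 (0.0759), iCM-Ex replicate 2 (0.131) or iCM-Ex replicate 3 (0.158), nor without the 3 arrays (-3.09, 0.191).

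Ndufa1, a small membrane-arm subunit encoded on the X chromosome, had 12.12, 12.41 and 11.99 in saline, 13.47, 14.24 and 15.60 in iCM and 13.24, 13.91 and 13.30 in iCM-Ex. All treated arrays were above all saline arrays. The rise in iCM was 2.26 ± 0.48 (SE, limma, adjusted p = 0.0322), and iCM-Ex minus saline was 1.31 ± 0.48 (adjusted p = 0.230). The Ndufa1 call was lost in 6 of 9 analyses with an array left out, namely without saline replicates 1, 2 or 3 (limma adjusted p = 0.0663, 0.0954 and 0.0815), without iCM replicate 2 (0.0851) and without iCM-Ex replicates 2 (just above the threshold) or 3 (0.0554). Without the 3 arrays with markers of other tissues it was 3.42 (adjusted p = 0.0719).

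Among the complex I genes that missed the threshold, the core subunits that carry the iron-sulfur clusters near coenzyme Q were low in iCM. Ndufs7 had 16.23, 14.53 and 14.37 in saline, 11.19, 10.79 and 12.77 in iCM and 12.06, 15.08 and 15.27 in iCM-Ex, a difference of -3.46 ± 0.87 (SE) between iCM and saline (limma adjusted p = 0.0567). Ndufs8 had 13.40, 12.68 and 13.05 in saline, 11.24, 10.33 and 12.43 in iCM and 12.79, 14.77 and 15.36 in iCM-Ex. The iCM arrays of both genes lay below every saline array, and those of Ndufs8 also below every iCM-Ex array, by 2.98 ± 0.67 on average (limma adjusted p = 0.0685). Ndufb9, an accessory subunit of the membrane arm, had 18.93, 18.12 and 18.00 in saline, 14.97, 14.99 and 17.49 in iCM and 17.49, 18.87 and 18.88 in iCM-Ex, with iCM below both others (-2.54 against saline, limma adjusted p = 0.0642, and 6.04-fold lower in iCM than in iCM-Ex, 0.0953). Its iCM replicate 3 and iCM-Ex replicate 1 nearly met.

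Other accessory subunits of complex I lay in the opposite direction. Ndufa5, of the arm that protrudes into the matrix, had 14.16, 13.19 and 11.99 in saline, 14.29, 16.30 and 17.24 in iCM and 13.95, 14.77 and 14.41 in iCM-Ex, a difference of 2.83 ± 0.72 in iCM (limma adjusted p = 0.0598). Ndufa2, Ndufb7 and Ndufb8 were the complex I genes with the largest non-overlapping differences between iCM-Ex and saline, at 2.07, 1.95 and 1.85 (limma adjusted p = 0.106, 0.153 and 0.169), and they were higher by 2.12, 2.11 and 1.58 in iCM. Of the remaining core subunits, Ndufs1 and Ndufs3 had differences between -0.76 and 0.33 in the 3 contrasts, Ndufv1 was lower in iCM-Ex than in iCM by 1.22 without overlap (limma adjusted p = 0.401), and Ndufv2 overlapped between all groups. Over complex I, 21 of 35 genes were higher in iCM and 28 of 35 in iCM-Ex than in saline. Ndufb4 and Ndufb4b are near-identical copies whose probe sets may share RNA, so their separate values are uncertain.

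Complex II, the succinate dehydrogenase, was the only complex whose measured genes were all lower in iCM than in saline. However, 0 of the 4 passed by limma (3.67% of all genes did). At an unadjusted p under 0.05 by limma, 2 of the 4 were lower and 0 higher. Of all 19505 genes, 1945 were lower and 2047 higher at that threshold. Sdhb, the iron-sulfur subunit, had 16.44, 16.63 and 16.17 in saline, 14.78, 14.41 and 16.02 in iCM and 15.22, 16.48 and 16.00 in iCM-Ex. The iCM arrays of Sdhb lay below every saline array, iCM replicate 3 narrowly, with a difference of -1.34 ± 0.45 (SE, limma adjusted p = 0.124). Sdhc and Sdhd, the membrane anchors, differed by -1.09 and -0.38 and Sdha, the flavoprotein, by -0.40 with overlapping arrays. The complex II median was -0.75 for iCM minus saline and -0.45 for iCM-Ex minus saline, and without the 3 arrays with markers of other tissues the first of these was 0.055.

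In complex III, the cytochrome bc1 complex, Uqcrc2 fell in iCM. Uqcrc2, one of its large core proteins, had 12.19, 10.54 and 10.65 in saline, 6.12, 8.22 and 8.25 in iCM and 10.51, 11.95 and 11.83 in iCM-Ex. The iCM arrays lay more than 2 below every other array, and saline and iCM-Ex overlapped. The fall in iCM was -3.60 ± 0.66 (SE, limma, adjusted p = 0.0210), or 12.1-fold, and iCM-Ex exceeded iCM by 3.90 ± 0.66 (adjusted p = 0.0355). iCM-Ex minus saline was 0.30 (adjusted p = 0.871).

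The Uqcrc2 fall in iCM missed the threshold without saline replicate 2 (limma adjusted p = 0.0612) and without the 3 arrays with markers of other tissues (-2.88, 0.218). The difference between iCM-Ex and iCM missed it without saline replicate 2 (0.0689), iCM replicate 2 (0.0747), iCM replicate 3 (0.0642), iCM-Ex replicate 2 (0.151) or iCM-Ex replicate 3 (0.190), and without the 3 arrays (2.98, 0.353). Uqcrc1, the partner of Uqcrc2 in the core, was not low in iCM. Its signals were 13.30, 13.07 and 12.45 in saline, 12.78, 12.92 and 15.14 in iCM and 12.38, 13.23 and 13.35 in iCM-Ex, and all groups overlapped.

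Of the small subunits of complex III, Uqcr11, Uqcr10 and Uqcrq had higher means in both treated groups without passing, and Uqcrh did not share this order in iCM. Uqcr11 had 8.94, 8.48 and 8.10 in saline, 9.94, 9.81 and 12.63 in iCM and 10.77, 11.37 and 11.92 in iCM-Ex, so that every treated array was above every saline array. Its differences from saline were 2.29 ± 0.67 in iCM (limma adjusted p = 0.0887) and 2.85 ± 0.67 in iCM-Ex (0.101). Uqcr10 was higher by 1.28 in iCM and 2.13 in iCM-Ex, and Uqcrq by 1.36 and 0.93, each without overlap with saline. Uqcrh, the hinge protein that lies near cytochrome c1, had 17.33, 17.31 and 16.46 in saline, 15.61, 14.86 and 17.03 in iCM and 16.75, 18.19 and 18.32 in iCM-Ex. Its differences from saline were -1.20 in iCM and 0.72 in iCM-Ex, with overlap (limma adjusted p = 0.281 and 0.615). Cyc1, the cytochrome that hands electrons to cytochrome c, had 9.61, 10.20 and 9.10 in saline and 10.48, 10.85 and 10.55 in iCM-Ex, a difference of 0.99 (limma adjusted p = 0.374). Uqcrfs1, the Rieske iron-sulfur protein, differed by -1.36 in iCM with overlap. Uqcrb was within 0.5 of the highest log2 signal of the table (19.93) on all arrays, so a difference in it may not have been measurable.

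**Figure D2:**
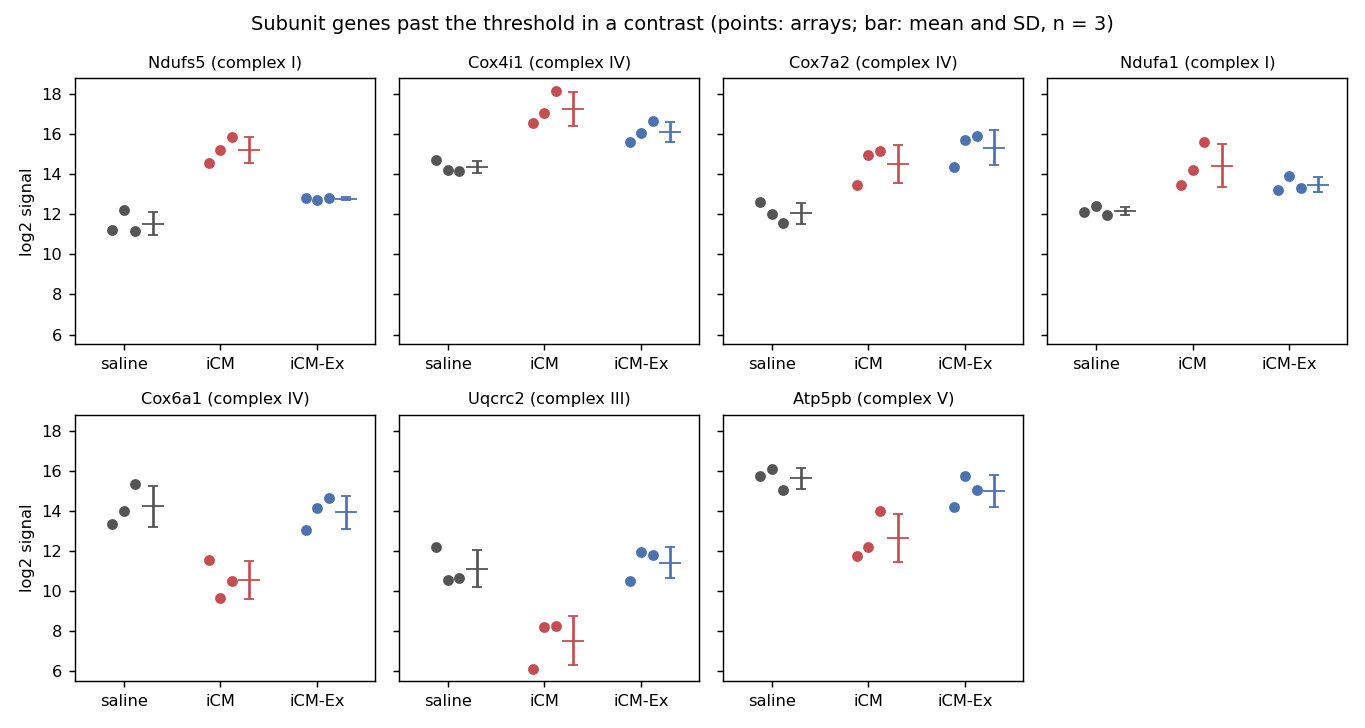
Log2 signal (y axis) of the 7 subunit genes past the threshold in a contrast, with a point for each array and a bar for the mean and SD of the 3 arrays of saline, iCM and iCM-Ex. Ndufs5, Cox4i1, Cox7a2 and Ndufa1 were higher in every iCM array than in every saline array, and Cox6a1, Uqcrc2 and Atp5pb lower.

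Complex IV, the cytochrome c oxidase, had rises and a fall among the genes that exist in tissue-specific forms. Cox4i1, the common form of subunit IV, had 14.70, 14.24 and 14.17 in saline, 16.57, 17.06 and 18.19 in iCM and 15.64, 16.06 and 16.66 in iCM-Ex. Saline was lowest, and iCM and iCM-Ex barely overlapped. The rise in iCM was 2.90 ± 0.43 (SE, limma, adjusted p = 0.0101), or 7.47-fold, and iCM-Ex minus saline was 1.75 ± 0.43 (adjusted p = 0.107). The Cox4i1 call was lost without saline replicate 2 (limma adjusted p = 0.0531) and without the 3 arrays with markers of other tissues (3.82, 0.0719).

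Cox7a2, the form of subunit VIIa found in liver and many other tissues, was the member that passed in both treated groups. It had 12.61, 12.01 and 11.56 in saline, 13.45, 14.95 and 15.15 in iCM and 14.35, 15.74 and 15.93 in iCM-Ex. All treated arrays exceeded all saline arrays, and the treated groups overlapped. Cox7a2 rose by 2.46 ± 0.55 in iCM (SE, limma, adjusted p = 0.0384) and by 3.28 ± 0.55 in iCM-Ex (adjusted p = 0.0439), and the treated groups differed by 0.82 ± 0.55 (0.560).

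Both Cox7a2 calls depended on single arrays. That in iCM was lost in 7 of 9 analyses with an array left out, namely without saline replicates 1, 2 or 3 (limma adjusted p = 0.0508, 0.120 and 0.0994), iCM replicates 2 or 3 (0.127 and 0.0901) or iCM-Ex replicates 2 or 3 (0.0595 and 0.0554). That in iCM-Ex was kept without iCM-Ex replicate 1 and lost without any 1 of the other 8 arrays (limma adjusted p = 0.0504 to 0.237). Without the 3 arrays with markers of other tissues the differences were 3.09 in iCM (adjusted p = 0.148) and 2.99 in iCM-Ex (0.361).

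Cox6a1, the form of subunit VIa found outside heart and skeletal muscle, fell in iCM. It had 13.36, 14.02 and 15.33 in saline, 11.53, 9.66 and 10.49 in iCM and 13.04, 14.14 and 14.65 in iCM-Ex. The iCM arrays lay below all others, and saline and iCM-Ex overlapped. The fall in iCM was -3.68 ± 0.62 (SE, limma, adjusted p = 0.0151), or 12.8-fold, and iCM-Ex exceeded iCM by 3.38 ± 0.62 (adjusted p = 0.0386). iCM-Ex minus saline was -0.30 (adjusted p = 0.865).

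The Cox6a1 fall in iCM missed the threshold without saline replicate 2 (limma adjusted p = 0.0612), iCM replicate 2 (0.0581) or the 3 arrays with markers of other tissues (-3.75, 0.151). Between iCM-Ex and iCM it missed it without saline replicate 2 (0.0742), iCM replicate 2 (0.128), iCM replicate 3 (0.0935), iCM-Ex replicate 2 (0.170) or iCM-Ex replicate 3 (0.205) and without the 3 arrays (3.10, 0.335), and the difference was 1.54 (0.844) with control separation in the model.

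The alternative forms of the same subunits did not pass the threshold in any contrast. Cox6a2, the muscle form of subunit VIa, had 17.02, 17.14 and 17.45 in saline, 17.14, 15.63 and 18.71 in iCM and 16.71, 18.43 and 18.78 in iCM-Ex, with overlap of all groups and a difference of -0.04 in iCM (limma adjusted p = 0.983). The log2 ratio of Cox6a1 to Cox6a2 was lower by 3.63 in iCM than in saline without overlap of the arrays. Cox7a1, the muscle form of subunit VIIa, differed by 0.90 in iCM and 1.42 in iCM-Ex with overlap, and the ratio of Cox7a2 to Cox7a1 was higher by 1.56 in iCM and 1.86 in iCM-Ex without overlap. Cox4i2, the lung and low-oxygen form of subunit IV, differed by 0.32 in iCM, and the ratio of Cox4i1 to Cox4i2 was higher by 2.58 without overlap. The Cox4i2 signals of 5.58 to 6.72 were near the median negative controls of the arrays (4.76 to 5.56). A difference in Cox4i2 may thus not have been measurable. With 3 arrays against 3 an exact two-sided permutation test of a ratio cannot give a p below 0.1, which these ratios reached (0.208 after Benjamini-Hochberg adjustment over 27 comparisons of pairs).

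**Figure D3:**
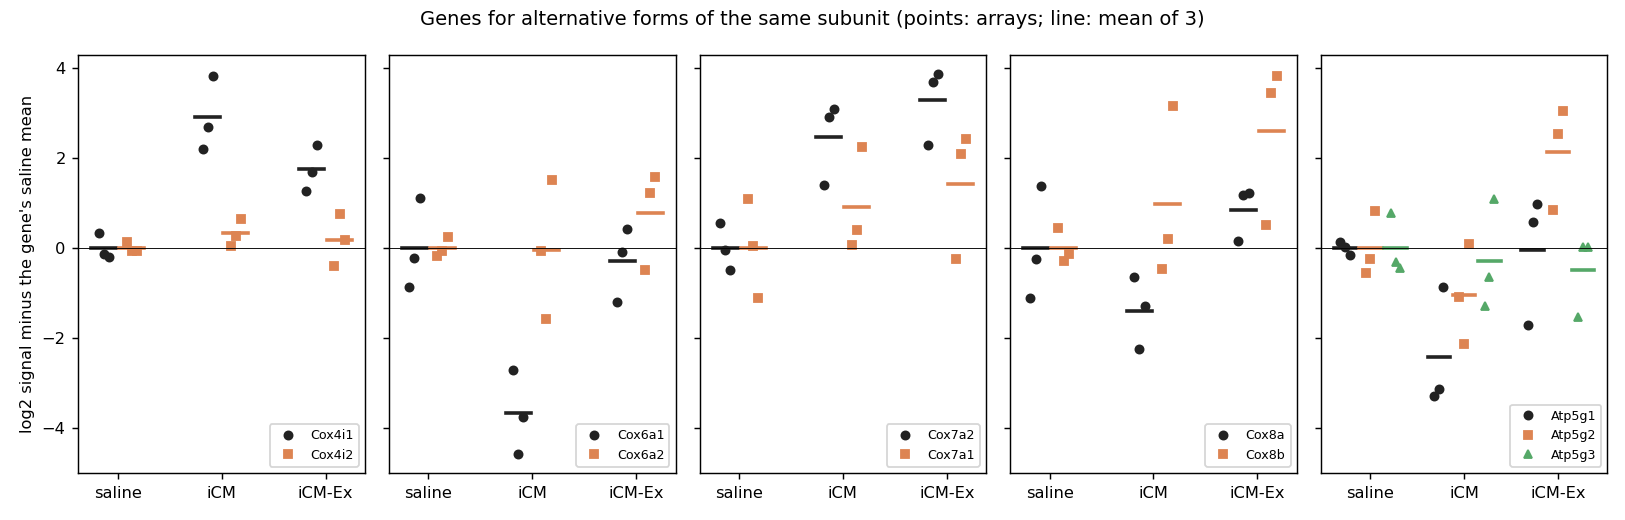
Log2 signal minus the gene's saline mean (y axis) for genes that encode alternative forms of the same subunit, with a point for each array and a line for the mean of the 3 arrays of saline, iCM and iCM-Ex. Cox6a1 lay low in iCM and Cox6a2 did not, and Atp5g1 and Atp5g2 were higher in iCM-Ex than in iCM by 2.38 and 3.19 while Atp5g3 differed by -0.21.

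Of the other complex IV genes, Cox8b, the muscle form of subunit VIII, had 12.42, 11.67 and 11.83 in saline, 11.51, 12.17 and 15.12 in iCM and 12.48, 15.41 and 15.79 in iCM-Ex. The iCM-Ex arrays were above every saline array, the first of them by a small step, and the difference was 2.59 ± 0.99 (SE, limma adjusted p = 0.250). Cox8a, its common counterpart, was higher in iCM-Ex than in iCM by 2.24 without overlap (limma adjusted p = 0.119). Cox7c differed by 0.29 or less in every contrast and came within 0.5 of the highest signal. Cox6b1 and the testis form Cox6b2 gave overlapping ratios in every contrast, and Cox6b2 was below the median negative control on all arrays. Ndufa4 and Ndufa4l2 were higher in iCM by 0.93 and 1.10, both with overlap, and Ndufa4 came within 0.5 of the highest signal on 1 array.

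In complex V, Atp5pb, subunit b of the stalk that holds the catalytic head in place, fell in iCM. It had 15.77, 16.09 and 15.06 in saline, 11.74, 12.22 and 14.01 in iCM and 14.20, 15.78 and 15.06 in iCM-Ex. The iCM arrays lay below all others, with iCM replicate 3 close to iCM-Ex replicate 1. The fall was -2.98 ± 0.60 (SE, limma, adjusted p = 0.0269), or 7.91-fold, and iCM-Ex minus iCM was 2.36 ± 0.60 (adjusted p = 0.0928). The call was lost without saline replicates 1 or 2 (limma adjusted p = 0.0607 and 0.103) and iCM replicates 1 or 2 (0.0558 and 0.0950), and the difference was -1.63 (0.396) without the 3 arrays with markers of other tissues.

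The 2 small subunits of the central stalk, which turns inside the head, lay in opposite directions in iCM. Atp5d, the delta subunit, had 14.11, 14.51 and 14.78 in saline, 11.37, 11.05 and 13.23 in iCM and 13.64, 15.36 and 16.03 in iCM-Ex. Its iCM arrays lay below all others, by -2.59 ± 0.67 against saline (SE, limma adjusted p = 0.0616) and with iCM-Ex higher than iCM by 3.13 (0.0591). Atp5e, the epsilon subunit, had 7.92, 7.28 and 8.29 in saline, 9.84, 10.28 and 11.22 in iCM and 9.28, 11.38 and 12.16 in iCM-Ex, with every treated array above every saline array. Its differences were 2.62 ± 0.66 in iCM (limma adjusted p = 0.0585) and 3.11 ± 0.66 in iCM-Ex (0.0837).

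Subunit c forms the membrane ring of the ATP synthase and is encoded by 3 genes for the same mature protein. Atp5g1 had 17.74, 17.63 and 17.46 in saline, 14.32, 14.47 and 16.73 in iCM and 15.90, 18.17 and 18.58 in iCM-Ex, and Atp5g2 had 12.33, 12.62 and 13.69, then 11.79, 10.76 and 12.96, then 13.73, 15.41 and 15.92. Atp5g1 was below saline on every iCM array, and Atp5g2 was above both other groups on every iCM-Ex array, by 2.14 against saline and 3.19 against iCM (limma adjusted p = 0.174 and 0.0561). Atp5g3 overlapped between all groups. The log2 ratio of Atp5g2 to Atp5g3 was higher in iCM-Ex by 2.64 than in saline and by 3.40 than in iCM, and that of Atp5g1 to Atp5g3 was lower by 2.15 in iCM than in saline, all without overlap (exact permutation p = 0.1 each, the smallest possible).

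No gene of the catalytic head passed the threshold. Atp5b, the catalytic beta subunit, had 18.92, 19.11 and 18.63 in saline, 17.56, 17.93 and 19.04 in iCM and 18.82, 18.81 and 18.77 in iCM-Ex, with overlap of all groups. Atp5a1, the alpha subunit, was lower in iCM-Ex than in iCM by 0.71 without overlap (limma adjusted p = 0.399), a difference of uncertain size because 7 of its 9 arrays lay within 0.5 of the highest signal of the table. Atp5md, a small subunit of the membrane part, had 16.57, 17.33 and 16.95 in saline, 16.33, 16.10 and 17.77 in iCM and 17.40, 19.65 and 19.81 in iCM-Ex. The iCM-Ex arrays lay above every saline array (limma adjusted p = 0.186), but 2 of them were within 0.5 of the highest signal, so no fold is given. Over complex V, 8 of 17 genes were higher in iCM and 12 of 17 in iCM-Ex than in saline.

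**Figure D4:**
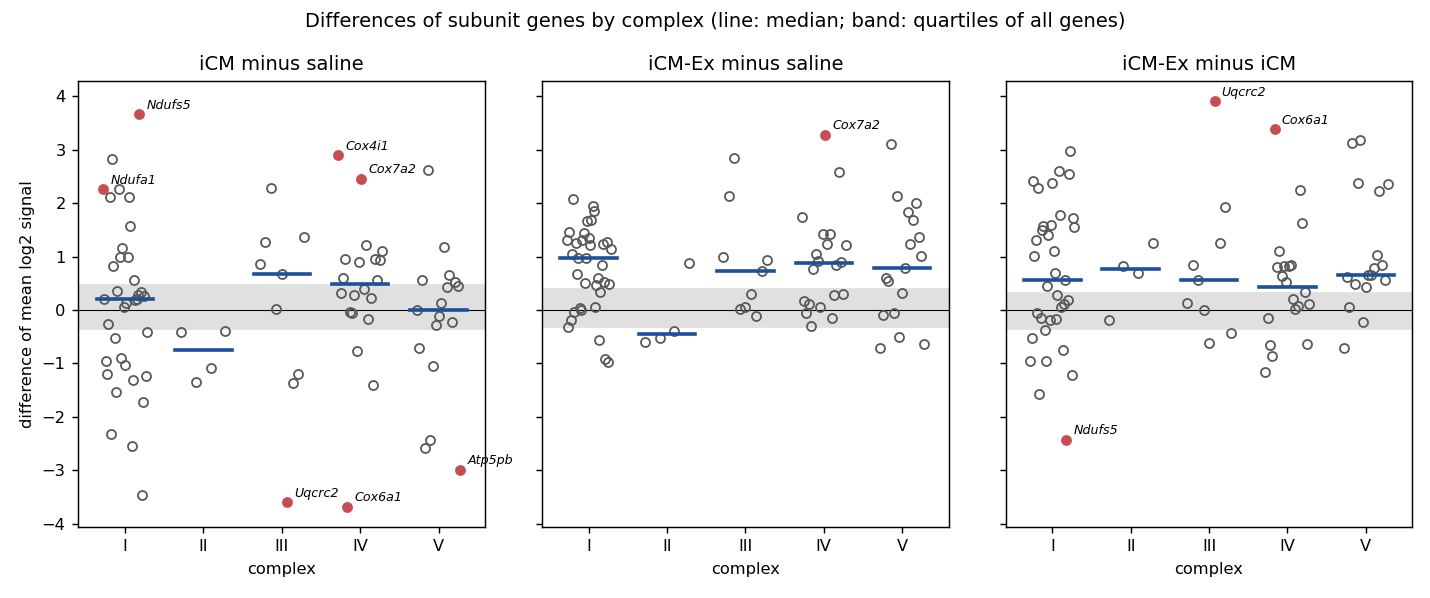
Difference of mean log2 signal (y axis) for each subunit gene, by complex (x axis), in the 3 contrasts, with filled named points past the threshold, a blue line for each complex's median and a grey band for the quartiles of all genes. The medians of iCM-Ex minus saline were 0.96, -0.45, 0.72, 0.87 and 0.80 for complexes I to V.

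The members were also counted by whether the arrays of 2 groups overlapped. In iCM, 17 of 85 members lay wholly above saline (13.8% of all genes) and 11 wholly below (10.2%). In iCM-Ex, 32 lay wholly above saline (12.2%) and 0 below (9.53%), of which 12 belonged to complex I, 4 to complex III, 9 to complex IV and 7 to complex V. In iCM-Ex against iCM, 9 lay wholly above (10.6% of the members and 10.2% of all genes) and 3 below (3.53% and 10%). The medians of iCM minus saline were 0.21, -0.75, 0.67, 0.48 and -0.0059 for complexes I to V, and those of iCM-Ex minus iCM were 0.57, 0.76, 0.56, 0.43 and 0.66. Without iCM replicate 3, iCM minus saline was -0.49, -1.19, 0.0020, 0.18 and -0.34, so that the complex I median turned in sign. Without iCM replicate 1 it was 0.58 for complex I, 1.09 for complex III and 0.22 for complex V, and without iCM replicate 2 it was -0.43 for complex II. For iCM-Ex minus iCM, the lowest medians with an array left out were 0.054, 0.16 and 0.45 for complexes I, IV and V (without iCM replicate 1) and 0.37 and 0.067 for complexes II and III (without iCM replicate 2). The highest were 1.19, 1.18, 1.48 and 0.56 for complexes I to IV (without iCM replicate 3) and 1.14 for complex V (without iCM-Ex replicate 1). For iCM-Ex minus saline, the medians with an array left out lay between 0.44 and 1.32 for complexes I, III, IV and V and between -0.67 and -0.12 for complex II. The lowest were found without iCM-Ex replicate 2 for complexes I and V, iCM-Ex replicate 3 for complex IV and saline replicate 3 for complexes II and III, and the highest for each complex without iCM-Ex replicate 1.

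Fewer of a list of catalytic and electron-carrying subunits than of the remaining members had higher means than saline. Of the 14 listed genes (the complex I core, complex II, Cyc1, Uqcrfs1, Atp5a1 and Atp5b), 5 were higher in iCM-Ex than in saline (median -0.25), against 61 of the 71 other members (median 0.93). In iCM minus saline the counts were 4 of 14 (median -0.55) and 45 of 71 (0.34), and in iCM-Ex minus iCM the shares were close, at 10 of 14 (0.66) and 53 of 71 (0.64). The difference between these groups of genes is a description and was not tested.

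Genes of the surrounding pathways were counted from lists that included no subunit. Over all genes, 55.5% were higher in iCM and 53.5% in iCM-Ex than in saline. Of 15 complex I assembly factors, 8 were higher in iCM and 7 in iCM-Ex than in saline, and 0 passed by limma in any contrast. At an unadjusted p under 0.05 by limma, 3 were higher and 3 lower in iCM (20.5% of all genes in either direction). In iCM-Ex 2 were higher and 2 lower (15.2%). Of 31 assembly factors for complexes II to V, 1 rose (1.34% of all genes) and 2 fell (2.33%) in iCM. Bcs1l, which inserts the Rieske protein into complex III, fell by 3.35 ± 0.49 (SE, limma, adjusted p = 0.00925). Cox18, which inserts a core subunit of complex IV, fell by 2.53 ± 0.50 (0.0268), and Lyrm7, which holds the Rieske protein before its insertion, rose by 1.60 ± 0.31 (0.0254). Cox20, another complex IV factor, was 3.52 ± 0.59 higher in iCM-Ex than in iCM (limma adjusted p = 0.0346).

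The fuel pathways that feed the chain had more genes lower than higher against saline, by a small margin for fatty acid oxidation in iCM. Of all 19505 genes, 8685 were lower in iCM and 9074 in iCM-Ex than in saline. In the tricarboxylic acid cycle and pyruvate dehydrogenase, 11 of 16 genes were lower in iCM (median -0.78) and 13 of 16 in iCM-Ex (median -0.86) than in saline. Pdha1, the catalytic subunit of pyruvate dehydrogenase, had 14.33, 13.64 and 12.54 in saline, 10.38, 9.99 and 11.44 in iCM and 10.47, 11.45 and 9.76 in iCM-Ex, a fall of 2.90 ± 0.57 in iCM (SE, limma, adjusted p = 0.0254) and a difference of -2.95 in iCM-Ex (0.0684). In fatty acid oxidation 10 of 17 genes were lower in iCM and 13 of 17 in iCM-Ex, and 0 passed by limma. At an unadjusted p under 0.05 by limma, 2 were lower and 0 higher in iCM (20.5% of all genes in either direction). In iCM-Ex 3 were lower and 1 higher (15.2%). Of 13 genes for cytochrome c and coenzyme Q, Coq5, a methyltransferase of coenzyme Q synthesis, fell by 3.24 ± 0.75 in iCM (limma adjusted p = 0.0443).

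Of 10 genes that carry ADP, ATP, phosphate and creatine across the membranes, 8 were lower in iCM and 9 in iCM-Ex. The counts over all 19505 genes were 8685 and 9074. Slc25a5, an ADP/ATP carrier, had 16.44, 16.71 and 17.06 in saline, 14.12, 14.44 and 15.31 in iCM and 15.57, 16.07 and 15.81 in iCM-Ex, 3 ranges that did not overlap. It fell by 2.11 ± 0.35 in iCM (limma, adjusted p = 0.0138). Among 15 regulators of respiratory genes, Tfam, which packages mitochondrial DNA and activates its transcription, rose by 1.63 ± 0.37 in iCM (limma, adjusted p = 0.0413). Its signals went from 6.12, 6.57 and 6.13 in saline to 7.11, 8.43 and 8.18. Of the 15 regulators, 8 were higher in iCM than in saline (55.5% of all genes) and 5 in iCM-Ex (53.5%). Against iCM, 4 were higher in iCM-Ex (46.1%). Nrf1, the gene of the NRF1 factor, was lower in iCM-Ex by 1.15 against saline and 1.42 against iCM. Both differences were without overlap (limma adjusted p = 0.189 and 0.101). Of 16 glycolysis genes, 8 were higher and 8 lower in iCM than in saline. Pgam1 alone passed, with a fall of 1.90 ± 0.37 in iCM (limma, adjusted p = 0.0250, where 3.67% of all genes passed).

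Most of these pathway calls depended on single arrays. The Bcs1l fall passed with any 1 array left out (limma adjusted p up to 0.0470, without saline replicate 2), but missed the threshold without the 3 arrays with markers of other tissues (-3.12, 0.186). The other 8 called pathway genes missed it without those 3 arrays and without saline replicate 2, and also without iCM replicate 2 (limma adjusted p = 0.0552 for Slc25a5 to 0.140 for Coq5). Cox18 and Pgam1 also missed it without saline replicate 3 (0.0573 and 0.0704), Lyrm7 without iCM replicate 3 (0.0620), and Pdha1 without saline replicate 1 (0.0599) or iCM replicate 1 (0.0519). Pgam1 was just above the threshold without iCM replicate 1. Cox20 missed it without iCM-Ex replicates 2 or 3 (0.148 and 0.190), and its difference was 2.39 (0.354) without the 3 arrays and 1.48 (0.801) with control separation in the model. The other 8 also missed it with control separation (limma adjusted p = 0.135 for Bcs1l to 0.329 for Tfam), where the Cox18 difference was -1.54. The Coq5 call passed only without iCM replicate 3 or iCM-Ex replicate 1, and the Tfam call only without iCM replicate 1 (limma adjusted p up to 0.140 and 0.134 otherwise).

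**Figure D5:**
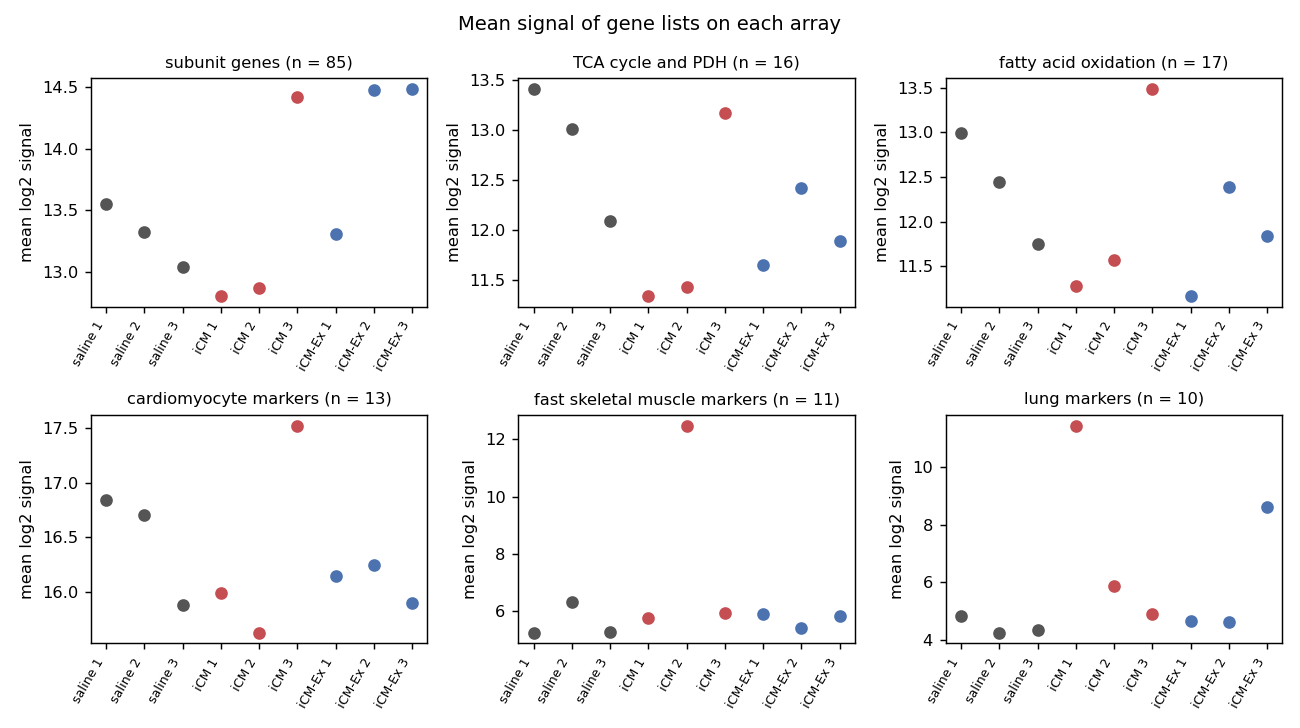
Mean log2 signal (y axis) of the subunit genes, 2 fuel pathway lists and 3 marker lists on each of the 9 arrays (x axis). The subunit mean was 14.47 and 14.48 on iCM-Ex replicates 2 and 3, above every saline array, whereas the tricarboxylic acid cycle mean was 12.42 and 11.89 there against 12.09 to 13.41 in saline.

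The plot of list means sets the subunit genes beside the fuel pathways. The tricarboxylic acid cycle mean was 13.41, 13.01 and 12.09 in saline, 11.34, 11.43 and 13.18 in iCM and 11.65, 12.42 and 11.89 in iCM-Ex. The fatty acid oxidation mean was 13.00, 12.44 and 11.75 in saline, 11.28, 11.57 and 13.49 in iCM and 11.17, 12.39 and 11.85 in iCM-Ex. All 3 lists were highest within iCM on replicate 3, and of the 3 only the subunit genes were above the saline arrays in iCM-Ex replicates 2 and 3. The difference between the lists was not tested.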

How the data were processed

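Total RNA from the peri-infarct region was measured on Clariom S arrays after labelling 5.5 µg of cDNA, per the labels' protocols. The deposited log2 signals, 1 per probe set and array, came from the authors' run of Affymetrix Expression Console (named in the submitters' processing notes). Its version and its normalisation steps were unstated in the labels and notes. The table held 28846 rows, of which 6640 were controls, and 19572 of the 22206 gene rows had 1 gene symbol. The brightest row of each gene was kept, which left 19505 genes, and no filter or further normalisation was applied.

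One limma fit (version 3.58.1 in R 4.3.3) with a mean for each of the 3 groups and empirical Bayes moderation gave the 3 contrasts and the F test, with two-sided p-values adjusted by Benjamini-Hochberg over all 19505 genes and a threshold of 0.05. SE is the moderated standard error and SD is over 3 arrays. Data for iCM minus saline were simulated with 19505 genes, 50 of them changed at each size, and noise independent between genes. There the fit recovered 8% of changes of 1, 50% of 2, 80% of 3 and 94% of 4 on the log2 scale. Shifts of many genes on a single array were not simulated, so these shares may not hold for the measured arrays. The members and lists were chosen with earlier results of these data known, so no test was made over a list. Genes named are the members past the threshold, the 3 largest non-overlapping differences per complex and contrast, the alternative subunit forms and the catalytic subunits. Of each pathway list, those past the threshold are named. Where none passed in a contrast, the plan named the 2 with the smallest p, most of which are left out here. Uqcrc1 was added after its values were seen. Control separation is the median of positive minus that of negative control probe sets on an array. Alternatives were other normalisations, filters and row choices, a replicate block, control separation as a covariate, and arrays left out.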

Additional observations from a re-analysis of the deposited data

Results flagged for a closer look

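For 3 subunit genes the response to iCM differed from the response to iCM-Ex, by the limma contrast between the treated groups. Cox6a1 differed from saline by -3.68 in iCM and by -0.30 in iCM-Ex, and iCM-Ex minus iCM was 3.38 (limma adjusted p = 0.0386). Uqcrc2 differed from saline by -3.60 in iCM and by 0.30 in iCM-Ex, and iCM-Ex minus iCM was 3.90 (limma adjusted p = 0.0355). Ndufs5 differed from saline by 3.66 in iCM and by 1.24 in iCM-Ex, and iCM-Ex minus iCM was -2.42 (limma adjusted p = 0.0308). The complex IV assembly factor Cox20 differed from saline by -2.21 in iCM and by 1.31 in iCM-Ex, and iCM-Ex minus iCM was 3.52 (limma adjusted p = 0.0346). For each of the 3 subunit genes all iCM-Ex arrays lay on 1 side of all iCM arrays, and the call was lost with the 3 arrays that carry markers of other tissues left out and with control separation in the model. The same held for the Cox20 call, where the difference was 2.39 (limma adjusted p = 0.354) without the 3 arrays and 1.48 (0.801) with control separation. With single arrays left out the subunit calls were lost without iCM replicates 2 or 3 and iCM-Ex replicates 2 or 3 for all 3 subunit genes, and without saline replicate 2 for Cox6a1 and Uqcrc2. The Cox20 call was lost without saline replicate 2, iCM replicate 2, iCM-Ex replicate 2 or iCM-Ex replicate 3.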

How the results depend on the processing

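The number of subunit genes past the threshold depended on the processing, and so did the share of all genes past it, given in brackets for the 3 contrasts. For iCM minus saline (7 genes, 3.67% of all genes) the number was 11 after quantile normalisation (4.45%). It was 14 of 82 among genes above the median level (7.76%). It was 1, Ndufs5, with control separation as a covariate (0.169%) and 1 to 11 with an array left out (0.646% to 4.12%). For iCM-Ex minus saline (1 gene, 0.349%) it was 0 with limma's trended and robust moderation (0.0872%) and 0 with control separation (0.0256%). It was 0 to 2 with an array left out (0% to 0.836%). For iCM-Ex minus iCM (3 genes, 1.07%) it was 5 after centring (1.68%) and 6 of 82 among genes above the median (3.61%). It was 0 with control separation (0%) and 0 to 14 with an array left out (0% to 2.06%). The F test (6 genes, 3.32% of all genes) gave 14 among genes above the median and 1 with control separation. It gave 1 to 18 with an array left out. The share of all genes past the F test was not at hand for these alternatives. Whether the F test numbers moved more than that share thus cannot be read from them. Leaving out the 3 arrays with markers of other tissues leaves 1 iCM array, which is assumed to vary like the other groups.

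With the replicate number as a block the counts were 4, 0 and 0 for the 3 contrasts (1.73%, 0% and 0.0923% of all genes). Same-numbered arrays of different groups correlated in their deviations from the group means at -0.257 to 0.068, and differently numbered ones at -0.156 to 0.249. With 3 arrays per group these correlations cannot show whether same-numbered hearts shared a day or batch, which was not tested.

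The complex medians moved by more than their spread in 15 of 276 alternatives. Without the 3 arrays, iCM minus saline was 1.64, 0.055, 2.06, 1.44 and 1.07 for complexes I to V, and iCM-Ex minus iCM was -0.93, -0.19, -1.04, -0.46 and -0.38. With control separation, iCM-Ex minus saline was 0.35 for complex IV, and iCM-Ex minus iCM was -0.20, -0.31 and -0.23 for complexes I, II and III. For complex III, iCM-Ex minus iCM was 0.067 to 1.48 with an array left out. Of 4368 alternative values of 243 results for named genes, 4000 kept their direction and side of the threshold, 133 lost and 57 gained a call, 178 changed sign without a call and 0 reversed a call. Subunits near the highest signal (5 genes) or below the negative controls (5 genes on at least 1 array) have differences of uncertain size.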

Other observations

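A pair of related genes fell outside the symbol rule. Ndufab1, the acyl carrier protein that is also a subunit of complex I, had log2 signals of 14.15, 14.30 and 14.09 in saline, 13.82, 14.88 and 16.75 in iCM and 14.09, 16.21 and 16.49 in iCM-Ex. It differed from saline by 0.97 in iCM and 1.42 in iCM-Ex (limma adjusted p = 0.503 and 0.409), and its arrays were ordered like those of most subunit genes, with iCM replicate 3 highest and iCM-Ex replicate 1 lowest of their groups. Atpif1, the protein that inhibits the ATP synthase when it runs in reverse, had 14.73, 14.38 and 13.76 in saline, 13.40, 11.74 and 14.25 in iCM and 13.87, 15.01 and 15.02 in iCM-Ex. It differed from saline by -1.16 in iCM and 0.34 in iCM-Ex (limma adjusted p = 0.302 and 0.836), with overlap of all groups.

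Macrophage markers (6 of 7 measured) had a mean log2 signal of 9.41, 11.02 and 12.79 in saline, 11.30, 11.38 and 9.51 in iCM and 12.03, 12.82 and 12.76 in iCM-Ex. The saline arrays spanned nearly the whole of this range.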
